A study of Mus musculus with 40 samples.

Results

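Apelin and adrenomedullin are small secreted peptides of blood vessels and fat cells, each read by its own receptor. Apelin is made as a longer precursor, is released by fat cells among others, and acts through the apelin receptor, a G protein-coupled receptor found on endothelial cells among others. Adrenomedullin widens vessels and keeps lymphatic and blood endothelium intact, and it acts through the calcitonin receptor-like receptor, which reaches the cell surface and gains its ligand preference only with a receptor activity-modifying protein (RAMP). RAMP1 turns that receptor towards calcitonin gene-related peptide, whereas RAMP2 and RAMP3 turn it towards adrenomedullin. Both peptide genes are known from cell culture to respond to low oxygen.

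The 7 genes described here, of 55270 in the table, are Apln (apelin), Aplnr (its receptor), Adm (adrenomedullin), Calcrl (the calcitonin receptor-like receptor), Ramp1, Ramp2 and Ramp3. They were listed by name and selected on 1 measured value, the fall of Apln with drug under high-fat diet in fat labelled subcutaneous, so Apln is given without a test in every comparison that uses the libraries labelled subcutaneous on high-fat diet. The data are RNA-seq of fat from C57BL/6J mice in 40 libraries, in 8 groups of 5. Fat labelled subcutaneous and fat labelled visceral were each taken from mice on normal diet, on normal diet with drug, on high-fat diet (HFD) and on HFD with drug, where the series design gives beta-carotene, a plant pigment and precursor of vitamin A, as the drug. No genotype other than the strain, and no dose, age, sex or length of feeding, is given in the sources used here. Nothing says that libraries came from separate animals, so p-values measure the spread between libraries. Some title numbers occur under both depot labels. If they mark the same animal, the Apln tests labelled visceral are not independent of the value that selected the genes. Values are TPM, transcript abundances scaled by gene length and library total. The 1 library total taken, that of HFD library 22 labelled subcutaneous, was 998276 TPM. The steps between low values put the depth of the libraries at about 4580000 to 8580000 counted reads, an approximation. At that depth 1 TPM in a gene of 1 kb stands for about 1.89 to 3.67 reads.

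The depot markers ran against the labels in all 40 libraries. Upk3b, a mesothelial gene of fat inside the body cavity, lay at 6.94 to 219 TPM in the libraries labelled subcutaneous and at 0 to 0.646 TPM in those labelled visceral. Shox2, a positional gene of inguinal fat, lay at 0.26 to 1.5 TPM and at 5.35 to 23.4 TPM respectively. Titles of the libraries labelled subcutaneous end in e or ewat, and titles of those labelled visceral end in i. The depot labels may therefore be exchanged, which was not tested. The depots are called only by their labels, and each depot result below carries this doubt. Transcripts of other tissues were also present. The summed TPM of 8 epididymis markers passed 500 in 5 libraries labelled subcutaneous (3 on normal diet with drug, 2 on HFD with drug; 643 to 41720 TPM). The sum of 6 B cell markers reached 88.5 to 4154 TPM in the libraries labelled visceral and 178 to 1858 TPM in those labelled subcutaneous. The sum of 7 skeletal muscle markers was 56.6 to 19040 TPM in the libraries labelled visceral and 55.0 to 702 TPM in those labelled subcutaneous. In bulk fat, fewer cells of a type and less RNA per cell cannot be told apart.

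Both peptide genes had higher means on HFD in fat labelled visceral, with the Adm call at the threshold. The 250 bases before the RefSeq start of each gene are therefore shown (build GRCm38.p6), 5′ to 3′ on the strand of the gene. Capitals mark matches of ACGTG or GCGTG on either strand, the core letters to which hypoxia-inducible factors bind. The Apln stretch, chrX:48034854-48035103 on the minus strand, held 0 matches, and the Adm stretch, chr7:110627407-110627656 on the plus strand, held 2, both GCGTG read on the minus strand, with their first printed base at -90 and -54 from the start.
Apln: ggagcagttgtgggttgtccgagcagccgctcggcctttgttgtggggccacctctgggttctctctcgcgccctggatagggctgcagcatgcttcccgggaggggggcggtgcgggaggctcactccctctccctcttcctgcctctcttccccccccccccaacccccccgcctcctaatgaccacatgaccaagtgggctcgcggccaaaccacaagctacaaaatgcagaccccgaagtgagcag
Adm: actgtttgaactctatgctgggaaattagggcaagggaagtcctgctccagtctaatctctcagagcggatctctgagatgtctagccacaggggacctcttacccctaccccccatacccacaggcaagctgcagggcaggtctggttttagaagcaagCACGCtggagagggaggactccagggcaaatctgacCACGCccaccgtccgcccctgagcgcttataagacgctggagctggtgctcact
Of 32851 RefSeq promoters cut to the same length, 38.6% held at least 1 match and 16.7% at least 2. Calcrl, Ramp1 and Ramp3 were also in the promoter table, with 0, 0 and 2 matches, and Aplnr and Ramp2 were not. A match of these letters is a description of the sequence only.

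Apln is an X-linked gene (chrX:48025146-48034853, minus strand, GENCODE M21 annotation of GRCm38). Its level was highest on HFD under both depot labels and lay near or below the level of normal diet once drug was given with HFD. In fat labelled visceral, Apln stood at 3.28, 3.89, 4.45, 10.9 and 18.1 TPM on normal diet. On HFD it stood at 17.5, 39.1, 43.2, 47.3 and 79.9 TPM. On HFD with drug it stood at 4.52, 6.55, 7.12, 7.97 and 8.04 TPM. So 4 of 5 HFD libraries lay above every normal library, and the HFD and HFD with drug libraries did not overlap. The share of all genes whose groups do not overlap was not counted, so overlap here and below is description only. The highest normal values, 10.9 and 18.1 TPM, came from libraries 92 and 98. Their muscle sums were 5277 and 15190 TPM, and their B cell sums were 165 and 404 TPM. Normal libraries 94, 96 and 99, which were lower in Apln, had B cell sums of 2490, 3425.5 and 3970 TPM. On HFD there the B cell sum ran from 192 to 1224 TPM and the muscle sum from 506 to 4044 TPM. On HFD with drug they ran from 88.5 to 3520 TPM and from 56.6 to 19040 TPM. The median B cell sum was 2490 TPM on normal diet, 573.6 on HFD and 1669 on HFD with drug. The part of those tissues in the changes of Apln with HFD and with drug was not tested. Normal diet with drug gave 2.34, 2.89, 3.34, 4.39 and 8.98 TPM, inside and below the range of normal diet.

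Those differences passed the test for HFD and for drug under HFD. Apln averaged 8.11 ± 6.35 TPM on normal diet and rose to 45.4 ± 22.4 TPM on HFD (SD, n = 5 each), a log2 change of 2.46 on the log2(TPM + 1) scale used throughout (SE 0.42, adjusted p = 0.0038, limma). It had the 21st highest change of the 17094 genes tested, and 5.29% of those genes passed the threshold of 0.05. Adding drug to HFD lowered it to 6.84 ± 1.44 TPM, a log2 change of -2.44 (SE 0.42, adjusted p = 0.022), where 2.16% of genes passed (12 up, 357 down). On normal diet, drug gave a log2 change of -0.62 (SE 0.42, adjusted p = 1), and no gene passed in that comparison (0% of genes called by limma, 590 at an unadjusted p under 0.05). The drug by diet interaction of Apln was -1.82 (SE 0.59, unadjusted p = 0.0065, adjusted p = 0.94), in a test that called 0.00585% of genes. The rise with HFD passed without any 1 of the 20 libraries, with adjusted p up to 0.0156. The fall with drug missed the threshold without HFD library 22 (adjusted p = 0.0778) or HFD library 50 (0.0758), and when library medians were made equal (0.107) or values were quantile-normalized (0.0884).

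In fat labelled subcutaneous, where no test of HFD is given for Apln, the libraries on normal diet held 11.6, 17.3, 18.7, 20.5 and 23.5 TPM. On HFD they held 30.7, 35.5, 38.6, 38.6 and 60.3 TPM, and on HFD with drug 9.16, 10.4, 14.0, 14.4 and 16.7 TPM. The HFD libraries overlapped neither of the others, and the HFD with drug range lay partly inside that of normal diet. The fitted log2 change was 1.11 (SE 0.31) for HFD and -1.58 (SE 0.31) for drug under HFD, the value on which the genes were listed. Drug on normal diet, which could be tested, gave 3.97, 6.89, 10.99, 12.7 and 22.3 TPM, with 3 of 5 libraries below every normal library. Its log2 change was -0.80 (SE 0.31, unadjusted p = 0.020, adjusted p = 0.77), in a comparison in which limma called 0% of 17649 genes and 1105 had an unadjusted p under 0.05.

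Ordered by mean, Apln ran from 45.4 TPM in HFD labelled visceral and 40.8 TPM in HFD labelled subcutaneous to 18.3 in normal, 12.9 in HFD with drug and 11.4 in normal with drug, all labelled subcutaneous, and then to 8.11 in normal, 6.84 in HFD with drug and 4.39 in normal with drug, all labelled visceral. Neighbours in this order overlapped in their libraries, except HFD and normal labelled subcutaneous. By likeness over libraries, the 4 genes nearest to Apln of 12443 were Cavin1, which encodes a coat protein of caveolae (r = 0.89 over 20 libraries labelled subcutaneous and 0.88 over 20 labelled visceral), Sparc, a matrix-binding glycoprotein (0.88 and 0.87), Sod3, an extracellular superoxide dismutase (0.87 and 0.88), and Cdc42ep2, a Cdc42 effector (0.87 and 0.92). These correlations describe libraries that share the groups, and no p is given for them.

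**Figure D1:**
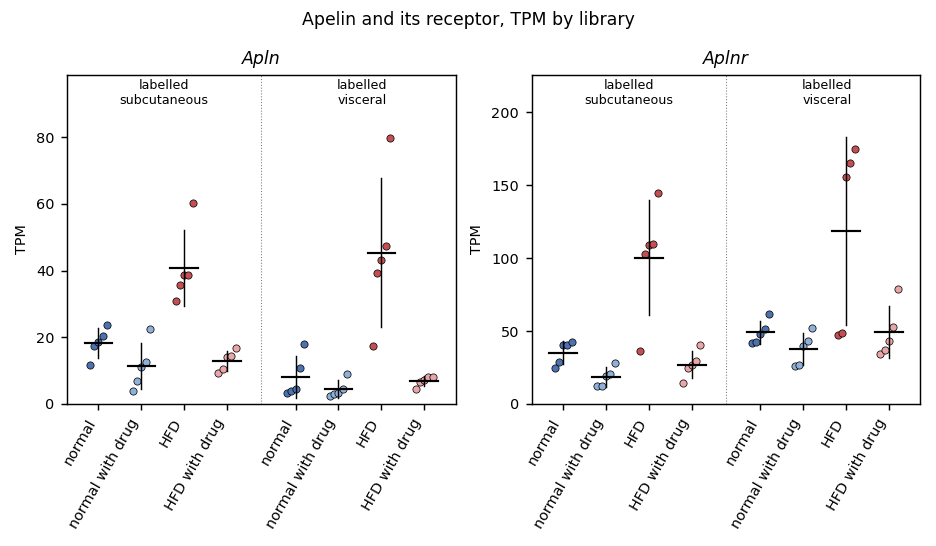
Apln (left) and Aplnr (right) in TPM for each library (points), with the mean (bar) and SD (vertical line) of the 5 libraries of each of the 8 groups. Apln lies at 17.5 to 79.9 TPM on HFD and at 2.34 to 23.5 TPM in every other group, and 3 of the 10 HFD libraries keep Aplnr below 50 TPM.

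Aplnr, the apelin receptor (chr2:85136225-85139923, plus strand), was higher on HFD under both labels, and the change passed the test only in fat labelled subcutaneous. There the normal libraries stood at 24.4, 28.7, 40.2, 40.7 and 42.2 TPM. The HFD libraries stood at 36.3, 102.9, 109, 109.5 and 145 TPM. The HFD with drug libraries stood at 14.3, 24.5, 26.4, 29.2 and 40.4 TPM. HFD library 23, at 36.3 TPM, was apart from the other 4 and lay within the range of normal diet. Aplnr rose with HFD, its mean going from 35.2 ± 8.12 TPM to 100.4 ± 39.5 (a log2 change of 1.39, SE 0.33, adjusted p = 0.0214, 5.45% of genes called). It fell with drug under HFD to 26.9 ± 9.4 TPM (log2 change -1.80, SE 0.33, adjusted p = 0.00387), a comparison in which 19.2% of genes passed (464 up and 2924 down, but 722 and 1005 with equal library medians and 733 and 1288 with quantile normalization) and the median log2 change of all genes was -0.17. Aplnr was the 1 called member of the 6 tested in each comparison. The fall passed without any 1 library, whereas the rise missed the threshold without HFD library 22 (adjusted p = 0.0746), HFD library 50 (0.0611), normal library 91 (0.0573) or normal library 96 (0.0524). Both missed it when libraries rich in epididymis, B cell or muscle transcripts were left out, with log2 changes of 1.16 (adjusted p = 0.22) and -1.58 (0.107).

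In fat labelled visceral, Aplnr lay at 41.9, 42.5, 47.9, 51.5 and 61.6 TPM on normal diet. HFD split into 47.6 and 48.5 TPM in libraries 51 and 23, and 156, 165 and 175 TPM in libraries 50, 22 and 83. HFD with drug gave 34.2, 37.1, 43.0, 52.9 and 78.5 TPM. The 3 high HFD libraries stood above all of the others, and the 2 low ones inside the normal range. The log2 change was 1.04 with HFD (SE 0.35, adjusted p = 0.097) and -1.09 with drug under HFD (SE 0.35, adjusted p = 0.101). Without library 23 the adjusted p was 0.0246 for HFD and 0.0248 for drug, and without library 51 it was 0.034 and 0.0455. The depot difference in the change with HFD was 0.35 (SE 0.50, adjusted p = 0.88), where limma called 0.00504% of genes, and that in the change with drug was -0.71 (SE 0.50, adjusted p = 0.46), where it called 0% (3401 genes at an unadjusted p under 0.05).

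On normal diet with drug, Aplnr stood at 12.2 to 28.2 TPM (median 18.9) in fat labelled subcutaneous, with 4 of 5 libraries below all normal ones, and at 26.3 to 52.1 TPM (median 39.5) in fat labelled visceral. Neither log2 change passed (-0.93, SE 0.33, adjusted p = 0.77, and -0.41, SE 0.35, adjusted p = 1). The mean order ran from 118 and 100.4 TPM in HFD labelled visceral and subcutaneous, through 49.2, 49.1 and 37.6 in HFD with drug, normal and normal with drug labelled visceral, to 35.2, 26.9 and 18.4 in normal, HFD with drug and normal with drug labelled subcutaneous, and each neighbouring pair overlapped. Over the 4 treatments Aplnr was lower in fat labelled subcutaneous by a log2 difference of -0.62 (SE 0.18, adjusted p = 0.00569), in a comparison that called 36.8% of 19859 genes (4700 higher and 2615 lower in fat labelled subcutaneous, but 3461 and 3775 with equal library medians and 3841 and 3843 with quantile normalization). Its nearest genes by likeness were Fam217b (r = 0.90 and 0.90), Mdfic, a MyoD family inhibitor domain protein (0.89 and 0.88), Nln, which encodes the peptidase neurolysin (0.88 and 0.89), and Nudt13 (0.88 and 0.88).

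Receptor and peptide did not keep a fixed ratio. The log2 ratio of Aplnr to Apln, both as TPM + 1, lay at 1.36 to 3.43 (median 2.998) on normal diet in fat labelled visceral. It lay at 0.27 to 1.99 (median 1.42) on HFD and at 2.23 to 3.14 (median 2.67) on HFD with drug, and the last 2 ranges did not overlap. In fat labelled subcutaneous the medians were 1.01, 1.39 and 0.83 in the same order, with ranges that overlapped throughout. Over 20 libraries the log2 levels of Apln and Aplnr had r = 0.77 in fat labelled subcutaneous and 0.75 in fat labelled visceral, as a description.

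Blood endothelial markers were set beside these genes. The sum of 12 markers (Pecam1, Cdh5, Tie1 and 9 others, none with a median at or near 0) was 863 to 1323 TPM on normal diet in fat labelled visceral, 1082 to 2662 TPM on HFD and 737 to 1051 TPM on HFD with drug. With that sum as a covariate, the log2 change of Apln there was 1.06 for HFD (SE 0.36, adjusted p = 0.59) and -0.66 for drug under HFD (SE 0.42, adjusted p = 0.9999), and 0 of all genes passed in either comparison. Of the 12 markers, 1 rose with HFD there, where 5.29% of genes were called (Cldn5, a tight junction claudin, log2 change 1.01, adjusted p = 0.0144), and the list's median was 0.27 against -0.06 over all genes. With drug under HFD 3 fell, where 2.16% were called (Cldn5, the receptor Tie1 and the cadherin Cdh5), and the median was -0.47 against -0.04. In fat labelled subcutaneous 0 of 12 passed with HFD, where 5.45% of genes were called, and the list's median was -0.18 against -0.02 over all genes. With drug under HFD 2 fell there (Tie1 and Cdh5), where 19.2% were called, with a median of -0.63 against -0.17. The sum there was 1301 to 2119 TPM on normal diet, 1492 to 2512 on HFD and 647 to 1782 on HFD with drug. In the fit with the covariate, Aplnr passed there for HFD (1.33, adjusted p = 0.0197) and for drug under HFD (-1.60, adjusted p = 0.0151). Markers of mural cells, the pericytes and smooth muscle of vessel walls, summed to 167 to 259 TPM on normal diet, 256 to 694 on HFD and 173 to 259 on HFD with drug in fat labelled visceral. The macrophage sum (8 markers) was 1905 to 2886 TPM on normal diet, 2366 to 10040 on HFD and 1169 to 2212 on HFD with drug in fat labelled subcutaneous. The endothelial sum itself differed between the groups labelled visceral. In fat labelled subcutaneous its median was 1423 TPM on normal diet, 1750 on HFD and 1052 on HFD with drug. Under either label the covariate therefore cannot separate endothelial content from diet or drug. The part of endothelial cells, mural cells and macrophages in the apelin results was not tested.

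**Figure D2:**
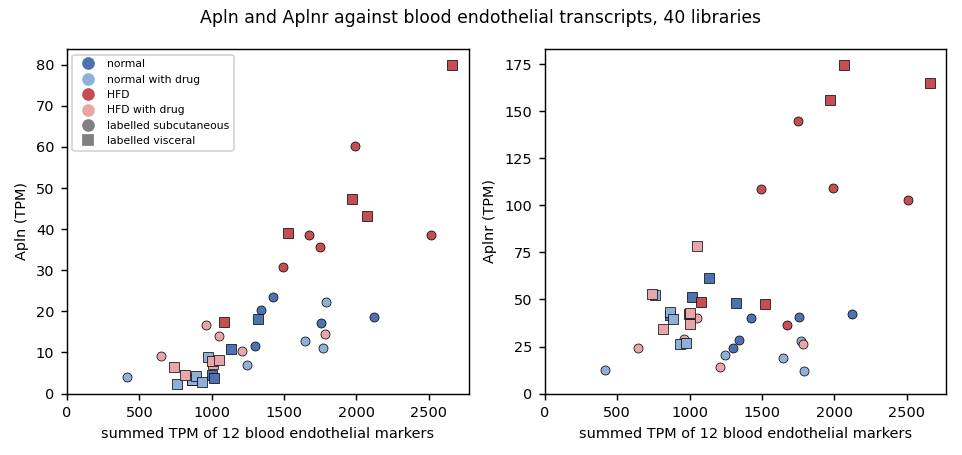
Apln (left) and Aplnr (right) in TPM against the summed TPM of 12 blood endothelial markers, 1 point per library, colours for treatment and shapes for depot label. Apln and the sum are both highest in HFD library 22 labelled visceral (79.9 and 2662 TPM), and at sums of 1492 to 2512 TPM in fat labelled subcutaneous Aplnr ranges from 36.3 to 145 TPM on HFD.

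Adm (chr7:110627661-110629820, plus strand) showed the opposite depot pattern to Aplnr and changed with HFD in fat labelled visceral. In that depot the normal libraries stood at 25.8, 26.6, 35.2, 41.6 and 55.3 TPM. HFD gave 69.4, 76.6, 85.4, 136 and 181 TPM, and HFD with drug gave 32.7, 44.8, 45.3, 49.8 and 52.5 TPM. HFD overlapped with neither group. Adm rose with HFD, its mean going from 36.9 ± 12.2 TPM to 109.7 ± 47.8 (a log2 change of 1.503, SE 0.43, adjusted p = 0.0490), so that 2 of the 6 members tested there passed, Apln and Adm, beside 5.29% of all genes. The fall with drug under HFD, to 45.0 ± 7.61 TPM, did not pass (log2 change -1.19, SE 0.43, unadjusted p = 0.0127, adjusted p = 0.141). The call for HFD stood at the threshold, passing in 5 of 20 fits that left out 1 library (adjusted p 0.0291 to 0.116). It was lost without 15 of the 20, which were HFD 22, 23, 50, 51 and 83, normal 92, 94, 96 and 99, HFD with drug 25, 26, 27, 54 and 62, and normal with drug 2. It was also lost with the B cell sum as covariate (log2 change 1.33, adjusted p = 0.0712) and with the endothelial sum (1.58, adjusted p = 0.71), and with no filter, quantile normalization, equal library medians or the length trend removed (adjusted p 0.054 to 0.0874). The B cell sum was 165 to 3970 TPM on normal diet and 192 to 1224 TPM on HFD.

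In fat labelled subcutaneous Adm ranged from 49.7 to 264 TPM. It lay at 132, 136, 168, 178 and 264 TPM on normal diet and at 84.6, 86.8, 140.2, 147 and 170.3 TPM on HFD. On HFD with drug it lay at 51.6, 64.1, 92.4, 111 and 153 TPM, and on normal diet with drug at 49.7, 153, 155, 225 and 247 TPM. All of these groups overlapped, and no change passed (HFD -0.49, SE 0.38, adjusted p = 0.50, drug under HFD -0.46, SE 0.38, adjusted p = 0.42, drug on normal diet -0.22, SE 0.38, adjusted p = 0.91). With the endothelial sum as covariate, the change with HFD was -0.72 (adjusted p = 0.0473). In fat labelled visceral, normal diet with drug spread from 14.7 to 87.2 TPM (median 46.5), a log2 change of 0.10 (SE 0.43, adjusted p = 1).

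Over the 4 treatments Adm was higher in fat labelled subcutaneous by a log2 difference of 1.34 (SE 0.21, adjusted p = 6.42e-06), and by 1.57 without the 5 epididymis-rich libraries. The change with HFD differed between the depot labels by -1.99 (SE 0.58, unadjusted p = 0.00168), which did not pass over all genes (adjusted p = 0.376). Adm ranked by mean from 175.6, 165.9 and 126 TPM in normal, normal with drug and HFD labelled subcutaneous to 109.7 in HFD labelled visceral and 94.5 in HFD with drug labelled subcutaneous, and then to 48.6, 45.0 and 36.9 in normal with drug, HFD with drug and normal labelled visceral. Each neighbouring pair in that order overlapped. The genes closest to Adm by likeness were Ednrb, the endothelin receptor type B (r = 0.91 and 0.86), Nsg1 (0.84 and 0.83), Anxa3, an annexin (0.82 and 0.85), and Ccn3, a matricellular protein (0.81 and 0.83). Apln and Adm had r = 0.33 over the libraries labelled subcutaneous and 0.71 over those labelled visceral. Within the HFD group labelled visceral they did not share an order. There Adm was highest in libraries 51 and 23 (181 and 136 TPM), where Apln was lowest (39.1 and 17.5 TPM).

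**Figure D3:**
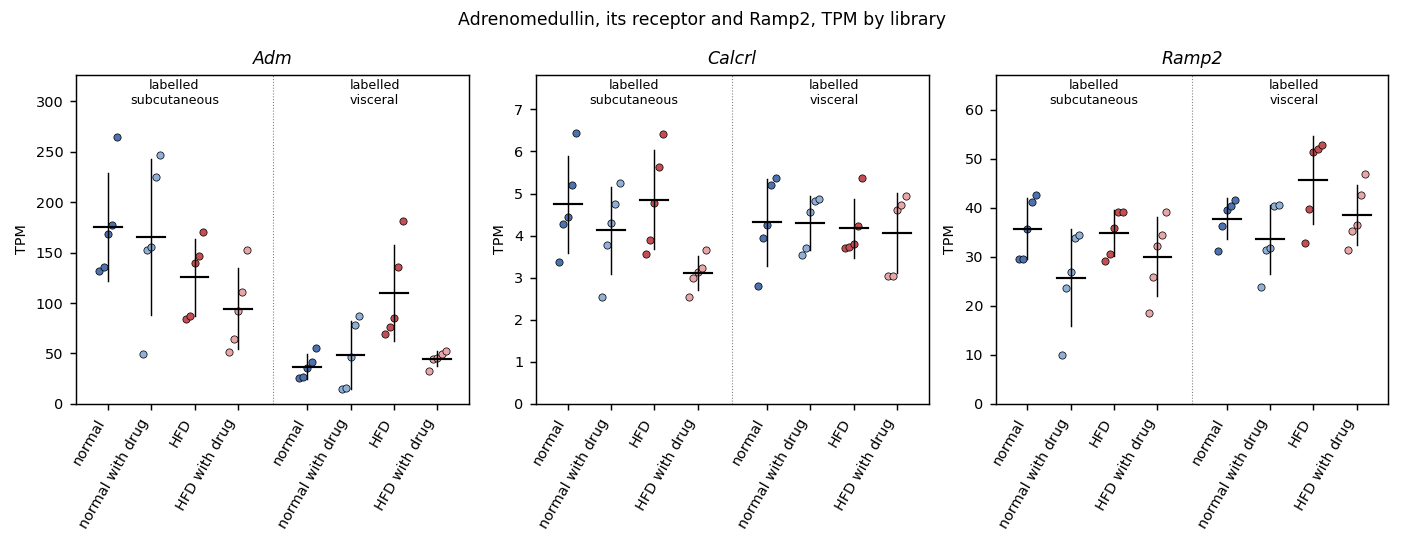
Adm, Calcrl and Ramp2 in TPM for each library (points), with the mean (bar) and SD (vertical line) of the 5 libraries of each of the 8 groups. Adm is at 69.4 to 181 TPM on HFD labelled visceral, above all 10 libraries of normal and HFD with drug there, while Calcrl stays between 2.55 and 6.44 TPM everywhere.

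Calcrl (chr2:84330626-84425411, minus strand) was low and nearly level. Its lowest library held 2.55 TPM and its highest 6.44 TPM. HFD left it at 4.75 ± 1.15 and 4.86 ± 1.19 TPM in fat labelled subcutaneous (log2 change 0.03, SE 0.17, adjusted p = 0.96). In fat labelled visceral the means were 4.31 and 4.17 TPM (-0.03, SE 0.16, adjusted p = 0.93). On HFD with drug labelled subcutaneous it stood at 2.55, 2.99, 3.14, 3.24 and 3.66 TPM, against 3.56, 3.91, 4.78, 5.63 and 6.42 TPM on HFD, so 4 of 5 libraries lay below all HFD ones. That log2 change of -0.49 (SE 0.17) just missed the threshold (adjusted p = 0.0534), and passed in 5 of 20 fits without 1 library, namely without HFD 23 or 83, normal 92 or 96, or normal with drug 9. Drug under HFD in fat labelled visceral gave -0.04 (SE 0.16), drug on normal diet gave -0.17 (SE 0.17) and 0.01 (SE 0.16) under the 2 labels, and the depot difference was -0.02 (SE 0.08, adjusted p = 0.89). Closest by likeness were Mbnl1, a splicing regulator (r = 0.84 and 0.83), the kinase Slk (0.84 and 0.83), Tmx3, a thioredoxin-related protein (0.83 and 0.83), and the transcription factor Gabpa (0.82 and 0.83).

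Among the RAMP genes, Ramp2 (chr11:101246028-101259546, plus strand) was the most abundant per length in the libraries with little epididymis transcript. Its group means were 35.8, 25.8, 34.8 and 30.1 TPM in normal, normal with drug, HFD and HFD with drug labelled subcutaneous. The same groups labelled visceral had means of 37.8, 33.6, 45.7 and 38.5 TPM. The lowest library, normal with drug 9 labelled subcutaneous, had 10 TPM and the highest epididymis sum, 41720 TPM. In no diet or drug comparison did Ramp2 pass (log2 changes from -0.55 to 0.25, adjusted p from 0.37 to 1). The change with drug under HFD labelled subcutaneous was -0.24 (SE 0.26, adjusted p = 0.55), but 0.34 (adjusted p = 0.0434) with the endothelial sum as covariate. That sum itself differed between these groups, so the covariate cannot separate it from drug. The depot difference of -0.32 (SE 0.11, adjusted p = 0.0205) became -0.17 (adjusted p = 0.125) without the epididymis-rich libraries. Its nearest genes by likeness were Spaar (r = 0.90 and 0.88), Hrct1 (0.98 and 0.87), Marchf2, a ubiquitin ligase (0.87 and 0.89), and Aqp1, a water channel of capillary endothelium (0.90 and 0.87). The Ramp2 to Calcrl ratio of TPM ran from 3.93 to 15.4 over all libraries, and its group medians from 6.57 to 10.5.

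Ramp1 (chr1:91179822-91225196, plus strand) and Ramp3 (chr11:6658521-6677475, plus strand) were high where epididymis transcripts were high. The part of those transcripts in the results was not tested, and values without these libraries are given with the drug and depot comparisons. In the 5 epididymis-rich libraries Ramp1 stood at 3.19 to 15.0 TPM (median 14.1), against 0.491 to 2.88 TPM (median 1.08) in the other 15 labelled subcutaneous. Ramp3 stood at 8.42 to 85.3 TPM (median 37.3) against 0.144 to 3.97 TPM (median 1.22), and neither pair of ranges overlapped. Over the 20 libraries the 2 genes had r = 0.94.

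**Figure D4:**
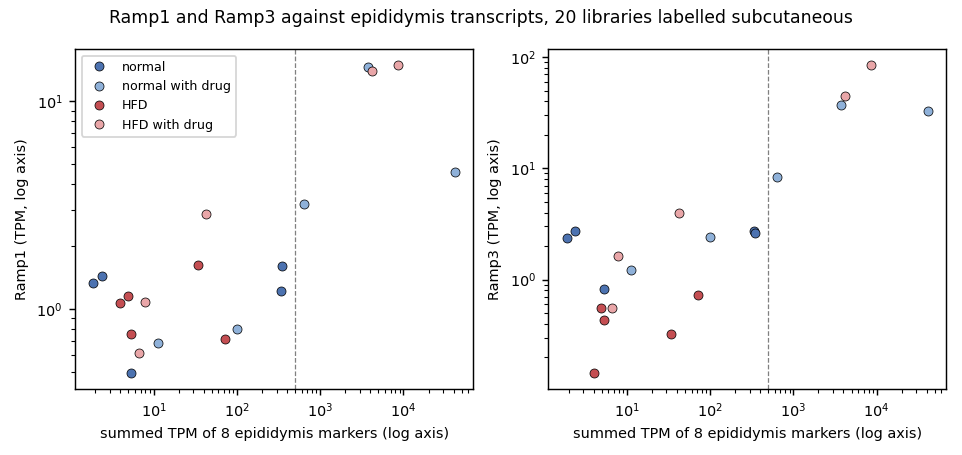
Ramp1 (left) and Ramp3 (right) in TPM against the summed TPM of 8 epididymis markers in the 20 libraries labelled subcutaneous, both axes on a log scale, with a dashed line at 500 TPM. The 5 libraries to the right of the line hold the highest values of both genes.

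These 5 libraries all belong to the groups with drug. On HFD with drug labelled subcutaneous, Ramp3 was at 0.556, 1.64, 3.97, 44.7 and 85.3 TPM, and on HFD at 0.144, 0.325, 0.433, 0.558 and 0.728 TPM. Its log2 change of 2.75 (SE 0.96, adjusted p = 0.0521) became 0.94 (SE 0.34, adjusted p = 0.0568) without the epididymis-rich libraries, and it passed with a pseudocount of 0.5 (3.18, adjusted p = 0.0403), with equal library medians (2.93, adjusted p = 0.0481) and in 5 of 20 fits without 1 library (HFD with drug 52 or 62, normal with drug 2, 9 or 11). Ramp1 was at 1.07 ± 0.364 TPM on HFD and 6.72 ± 7.175 TPM on HFD with drug, a log2 change of 1.29 (SE 0.63, adjusted p = 0.16) that was 0.20 (SE 0.27, adjusted p = 0.60) without those libraries. On normal diet the changes with drug were 0.90 for Ramp1 (SE 0.63, adjusted p = 0.81) and 1.64 for Ramp3 (SE 0.96, adjusted p = 0.80).

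Between diets without drug in fat labelled subcutaneous, no library passed the cut of 500 TPM for epididymis markers. Normal libraries 98 and 99 still held sums of 335 and 348 TPM, against at most 71.75 TPM on HFD. Ramp3 did not overlap between these groups. It held 0.817, 2.35, 2.64, 2.72 and 2.75 TPM on normal diet and at most 0.728 TPM on HFD in fat labelled subcutaneous. The log2 change of -1.14 (SE 0.96) did not pass in the fit of all 20 libraries (adjusted p = 0.54), whose spread includes the epididymis-rich ones. Without those, in a fit chosen after the data were seen, the same change had an SE of 0.30 and an adjusted p of 0.0277. Every HFD library lay below the filter of 1 TPM, so Ramp3 entered the fit through other groups. This p and its p-values for drug under HFD give no separate support. The exons of Ramp3 span 1380 bases, so the HFD values stand for few reads. Ramp1 did not follow it, at 1.22 ± 0.43 and 1.07 ± 0.364 TPM (log2 change -0.09, SE 0.63, adjusted p = 0.96).

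In fat labelled visceral Ramp3 lay below the filter of 1 TPM in 5 libraries and was not tested. Its group means there were 0.665, 0.579, 0.348 and 0.579 TPM in normal, normal with drug, HFD and HFD with drug. Ramp1 lay at 0.416 to 1.37 TPM there, and none of its changes passed (log2 changes from -0.17 to 0.24, adjusted p from 0.51 to 1). The depot difference was 0.69 for Ramp1 (SE 0.23, adjusted p = 0.0192) and 1.59 for Ramp3 (SE 0.36, adjusted p = 0.000733). Ramp3 reached 1 TPM in 13 of 20 libraries labelled subcutaneous and in 3 of 20 labelled visceral. It thus passed the filter of the depot fit through the label where it was high. Its depot p gives no separate support, here or without the epididymis-rich libraries. Without the epididymis-rich libraries the depot difference was 0.12 for Ramp1 (adjusted p = 0.46) and 0.68 for Ramp3 (adjusted p = 0.00067). Over all libraries 5 of the 6 members tested between depot labels passed, Ramp3 among them, where 36.8% of genes were called. Without the 5 epididymis-rich libraries 3 of 6 passed (Aplnr, Adm and Ramp3), where 30.7% of genes were called. Both counts include Ramp3, which its filter favours. With Ramp3 set aside, the called members were Aplnr, Adm, Ramp1 and Ramp2 over all libraries, and Aplnr and Adm in the smaller fit. Genes nearest to Ramp1 by likeness were Pgap3 (r = 0.93 and 0.86), the epithelial transcription factor Ehf (0.89 and 0.82), Art4 (0.89 and 0.82) and Mpzl3 (0.84 and 0.82).

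**Figure D5:**
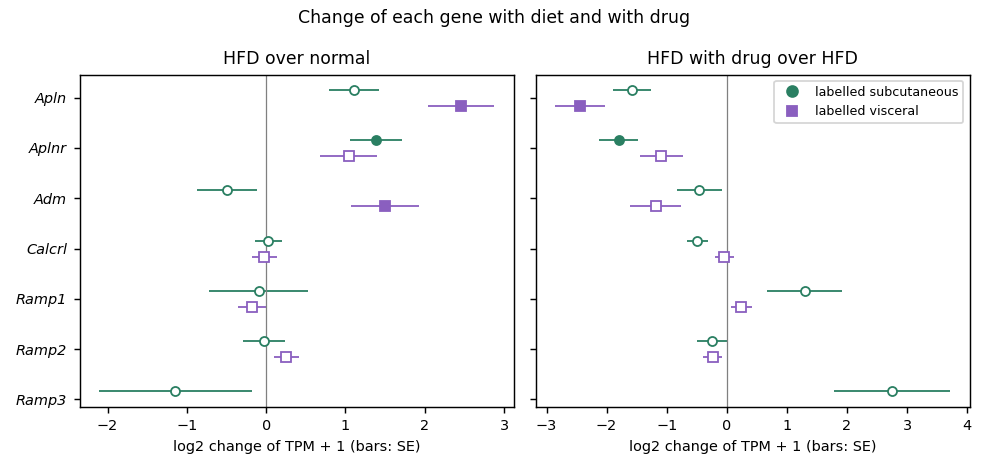
Log2 change of TPM + 1 with its SE (bars) for each gene, HFD over normal on the left and HFD with drug over HFD on the right, circles for fat labelled subcutaneous and squares for fat labelled visceral. Filled symbols passed an adjusted p of 0.05, Apln labelled subcutaneous is shown without a test, and Ramp3 labelled visceral was below the filter.

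Calca aside, the related ligands and receptors gave no call with diet or drug. Of 8 related ligands and receptors, 3 passed the filter in each depot, and Apela, Adm2, Calcb, Iapp and Calcr did not. Calca, the gene of calcitonin and calcitonin gene-related peptide, fell with HFD in fat labelled visceral (log2 change -1.09, adjusted p = 0.0177) and had a log2 change of -1.28 (adjusted p = 0.0835) in fat labelled subcutaneous. Ackr3, an atypical receptor that also binds adrenomedullin, did not pass with HFD (1.29, adjusted p = 0.17, and 0.03, adjusted p = 0.96, labelled visceral and subcutaneous).

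Genes that process or break down the peptides moved with Apln in part. Pam, the enzyme that amidates adrenomedullin, rose with HFD under both labels (log2 change 0.91, adjusted p = 0.0101, labelled subcutaneous, and 0.99, adjusted p = 0.00758, labelled visceral). It fell with drug under HFD under both (-1.11, adjusted p = 0.00281, and -0.81, adjusted p = 0.0442). Mme, which encodes the peptidase neprilysin, rose with HFD in fat labelled visceral (0.91, adjusted p = 0.0185), and Ece1, an endothelin-converting peptidase, fell with drug in fat labelled subcutaneous (-1.001, adjusted p = 0.00523). In counts over 6 tested genes of this list, 1 rose with HFD in fat labelled subcutaneous and 2 in fat labelled visceral, and 3 and 1 fell with drug, beside 5.45%, 5.29%, 19.2% and 2.16% of all genes called in those comparisons. The list's median log2 change with drug was -0.71 and -0.35, against -0.17 and -0.04 over all genes. These drug comparisons share the HFD libraries with the diet comparisons.

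Signalling partners of both receptors (8 genes) were G protein subunits, arrestins, kinases and Nos3, a nitric oxide synthase gene. They included 5 that fell with drug under HFD in fat labelled subcutaneous, led by Gnai2 (log2 change -0.58, adjusted p = 0.0042) and Prkaca (-0.58, adjusted p = 0.00549). In that comparison 19.2% of all genes were called, and the list's median was -0.58 against -0.17 over all genes. Prkaca, a catalytic subunit of protein kinase A, was the 1 gene of this list that rose with HFD there (0.64, adjusted p = 0.00479), and none passed in fat labelled visceral in either comparison. Of hypoxia-inducible genes, 0 of 15 passed with HFD in fat labelled subcutaneous and 3 of 15 fell with drug, among them Egln1 (-0.33, adjusted p = 0.027) and Car9 (-0.97, adjusted p = 0.0285), counts near the 5.45% and 19.2% of all genes called. In fat labelled visceral, where Apln and Adm rose with HFD, 1 of 16 rose (Ndrg1, 0.77, adjusted p = 0.0316) and 1 fell (Egln3, -1.39, adjusted p = 0.00727), against 5.29% of all genes called, and the list's median of -0.02 lay beside -0.06 over all genes. In that depot 0 of 16 passed with drug under HFD, where 2.16% were called. None of the 4 lists had a called gene for drug on normal diet or for the drug by diet interaction under either label, where the interaction labelled subcutaneous had 0% of genes called by limma and 2728 at an unadjusted p under 0.05.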

How the data were processed

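Total RNA was made into libraries with a NEBNext Ultra kit, per the labels' protocols. The submitters' processing notes list the aligner STAR (2.7.8), the counter featureCounts (2.0.3), FastQC (0.11.9), the package DESeq2 (1.32.0) and the GRCm39 build, and whether counting used strand is not given in the sources used here. The authors deposited 1 table of TPM values for all 40 libraries, in which 15340 of 55270 genes are at 0 throughout. TPM are not counts, so limma 3.58.1 (R 4.3.3, trended and robust empirical Bayes) was fitted to log2(TPM + 1), keeping genes that reached 1 TPM in 5 or more of the fitted libraries. Each depot label had 1 fit of 20 libraries and 4 groups, and depot comparisons had 1 fit of 40. For each of 11 comparisons the Benjamini-Hochberg adjustment ran over every gene kept, with a threshold of 0.05. The filter kept 7 members in the subcutaneous fit and 6 in the visceral fit. The fits were tested on simulated data.

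Groups came from the tissue and treatment labels. The members, the gene lists and the tests were chosen with earlier results of these data known. All 7 members are named, together with up to 2 genes of each list with the smallest adjusted p in a comparison (4 genes by likeness for each member), and the endothelial markers, and Ackr3 beside Calca in fat labelled subcutaneous, were named after their values were seen. Likeness is the lower of 2 Pearson correlations, 1 for each depot label. No 2 libraries held identical values. Alternatives were pseudocounts of 0.5 and 5, no filter and a filter of 10 TPM, quantile normalization, equal library medians, removal of a gene length trend, library weights, title numbers as a block, leaving out each library, and leaving out libraries rich in epididymis (over 500 TPM), B cell (over 1000 TPM) or muscle markers (over 5000 TPM). Leaving out epididymis-rich libraries alone and covariates for epididymis, B cell and blood endothelial sums were chosen after the data were seen.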

Additional observations from a re-analysis of the deposited data

Results flagged for a closer look

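In 4 of 56 groups of 5 libraries, 1 library stood apart from the others by a gap of more than 0.71 of the group's range on the log2(TPM + 1) scale. Chance flags about 1 in 20 groups. Aplnr in HFD library 23 labelled subcutaneous was at 36.3 TPM, below the other 4. Ramp1 was at 0.491 TPM and Ramp3 at 0.817 TPM in normal library 96 labelled subcutaneous, in each case below the other 4. Ramp3 was at 0.894 TPM in HFD library 23 labelled visceral, above the other 4.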

How the results depend on the processing

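Of 757 values for single genes under other settings, 733 kept direction and side of the threshold, 14 fell out of it, 7 came into it, 2 moved without a test and 1 reversed, which was Ramp2 with drug under HFD labelled subcutaneous (0.34 with the endothelial covariate). Of 1880 values with 1 library left out, 21 fell out of the threshold and 14 came into it. The cause was not tested in any case below. Most settings with a smaller relative change in a count are not listed, so an unlisted count need not be equal to the main one.

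Genes past the threshold for HFD labelled subcutaneous (961) numbered 1736 with the endothelial covariate, 2387 with library weights, 626 with no filter, 427 without libraries rich in other tissues, 1873 without epididymis-rich ones and 347 to 1473 without 1 library. For drug under HFD there (3388), they numbered 2129 with the filter of 10 TPM, 2021 with quantile normalization, 1727 with equal medians, 22 without libraries rich in other tissues and 1684 to 4136 without 1 library. For drug on normal diet there (0), 1 passed with a pseudocount of 0.5, quantile normalization, equal medians, the length trend removed or without epididymis-rich libraries, and 0 to 1 without 1 library. The drug by diet interaction there (0) had 11 with the endothelial covariate, 5 with a pseudocount of 5, 1 with the filter of 10 TPM, 67 without libraries rich in other tissues and 0 to 12 without 1 library. For HFD labelled visceral (905), 0 passed with the endothelial covariate, 3814 with weights, 602 with equal medians and 324 to 1457 without 1 library. For drug under HFD there (369), 556 passed with the B cell covariate, 0 with the endothelial covariate, quantile normalization or equal medians, 1552 with weights, 87 with no filter, 173 with the length trend removed and 0 to 1210 without 1 library. The interaction there (1) had 2 with weights, 0 with the endothelial covariate, either other filter, quantile normalization, equal medians or the length trend removed, and 0 to 3 without 1 library. Between depot labels (7315), 3676 passed with the filter of 10 TPM. The difference of the HFD change between labels (1) had 482 with weights, 0 with the filter of 10 TPM or equal medians, 5 without epididymis-rich libraries and 1 to 2 without 1 library, and that of the drug change (0) had 954 with weights, 16 with the filter of 10 TPM, 33 with quantile normalization, 175 without epididymis-rich libraries and 0 to 211 without 1 library.

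Members past the threshold for HFD labelled subcutaneous (1) numbered 2 with the endothelial covariate or without epididymis-rich libraries, 0 without libraries rich in other tissues and 0 to 1 without 1 library. The fit without epididymis-rich libraries counts Ramp3, which lay below the filter in every HFD library. For drug under HFD there (1), they numbered 2 with the endothelial covariate, a pseudocount of 0.5 or equal medians, 0 without libraries rich in other tissues and 1 to 3 without 1 library. For HFD labelled visceral (2), 1 passed with the B cell covariate, no filter, quantile normalization, equal medians or the length trend removed, 0 with the endothelial covariate, 3 with weights and 1 to 2 without 1 library. For drug under HFD there (1), 0 passed with the endothelial covariate, quantile normalization or equal medians, 2 with weights and 0 to 2 without 1 library. Between depot labels (5, Ramp3 among them), 3 passed with the filter of 10 TPM or without epididymis-rich libraries, and 1 (Adm, adjusted p = 0.0440) for the HFD difference between labels with weights.

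Title numbers shared by the 2 depot labels gave low correlations of libraries (r from -0.0714 to 0.093 over 16 pairs, consensus correlation 0.0982). Of these pairs, 6 were best with their own number. Whether a shared number marks the same animal is not stated, and these values cannot decide it. The main depot fits took the libraries as separate. With the number as a replicate block in the depot fit, 118 genes passed for the drug difference between labels (0 without it), with 0 members. Leaving out libraries rich in other tissues was not run for the visceral and depot comparisons, since no library labelled visceral on normal diet was left. Depth limits Ramp3 and Ramp1, which lay under 3 TPM in most libraries.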
